A study of Gossypium hirsutum with 12 samples.

Results

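In upland cotton leaves (Gossypium hirsutum), 197 of the 24029 probe sets that are not array controls are described here. Their signal at 32 °C was sizeable on average over both cultivars studied, and at 42 °C it was at least 2-fold higher in each. They were chosen by 4 limits. On the scale of log2(signal + 16), the group mean at 42 °C exceeded that at 32 °C by 1 or more in Sicala 45 and in Sicot 53. Within each cultivar the 3 arrays at 42 °C lay above the 3 arrays at 32 °C, as they did in both cultivars for 726 probe sets (3.02%), and the mean signal over the 6 arrays at 32 °C was 100 or more. A few probe sets of NAC and RAV1 genes were left out by their IDs. Because heat changes and the level at 32 °C chose the members, both are given as descriptions, with no test.

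Well-watered plants of Sicala 45 and of Sicot 53, 2 cotton cultivars, were sampled at first square, the stage of the first flower buds (the third youngest leaf to have fully expanded, all leaf cells together), and the leaf RNA was hybridised to Affymetrix Cotton arrays. On these, a probe set is a group of short probes for 1 transcript or several related ones, and its MAS5 signal is their summarised brightness on a linear scale. The 4 groups of 3 arrays were Sicala 45 and Sicot 53 at 32 °C by day and the same cultivars at 42 °C by day, after 4 d of settling at 32 °C days and 25 °C nights for all. Both temperatures were given in the same cabinet, the higher in a later run, so temperature and run cannot be told apart. The labels leave unsaid whether different plants gave the 3 leaf samples of a group, and p-values reflect no more than the spread among them.

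Heat unfolds proteins. Plant cells answer through heat shock transcription factors, which bind short promoter elements and raise transcripts of chaperones, among them small heat shock proteins, that hold or refold damaged proteins. In leaves the response also protects photosynthesis, whose Rubisco activase loses activity at high temperature. Some transcripts of this kind are nearly silent in cool leaves, while others are present at all times and increase. The probe sets described here were chosen for a mean signal of 100 or more over all arrays at 32 °C. This does not mean that each was bright on every cool array or in each cultivar. Without replicate 2 of Sicot 53 at 32 °C, 8 of them fall below that level. Of the 197, 3 carry 1 gene symbol, 2 carry several and 192 carry none, and none of the symbols comes with a gene name. Probe sets are therefore called by their IDs, and no role is given to them.

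Every array had been scaled by the authors to a trimmed mean of 500.3 or 500.4, and array medians of the non-control probe sets were 86.1 to 115. The poly-A spikes, bacterial transcripts added before labelling, had geometric mean signals of 450 to 756 at 32 °C and of 673 to 972 at 42 °C. The 3' to 5' signal ratio of the ubq11 control, a measure of shortened RNA or cDNA, was 4.73 to 10.7 at 32 °C and 6.39 to 41.5 at 42 °C. The actin ratio was 7.98 to 13.5 and 6.02 to 18.6. When each array was scaled to its spikes instead, 80 of the 197 members still met the limits, among them the 10 of largest heat change. The part of these measures in the heat changes was not tested. The leaf marker RCA1, Rubisco activase, had mean signals of 35358 at 32 °C and 37108 at 42 °C. In whole leaves, fewer cells of a type and less RNA per cell cannot be told apart.

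Through the limits that chose them, the members ranked among the brighter probe sets at 32 °C and ranked higher at 42 °C. Signals of different probe sets also depend on their probes, so these are ranks of signal and not of transcript amount. Their mean signals over the 32 °C arrays ran from 103 to 7981 with a median of 461, beside a median of 106 over all non-control probe sets. The member in the middle of the order exceeded 72.4% of probe sets at 32 °C and 90.8% at 42 °C, where the median signal of members was 1812. None of the 240 brightest probe sets at 32 °C was a member, and 13 of the 240 brightest at 42 °C were. Members made up 1.03% ± 0.0609 (SD, n = 3) of the summed signal in Sicala 45 at 32 °C and 1.04% ± 0.353 in Sicot 53 at 32 °C. At 42 °C they made up 3.96% ± 1.19 in Sicala 45 and 3.98% ± 0.505 in Sicot 53.

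Averaged over the cultivars, the heat change of members had a median of +1.54 on the log2 scale, a 2.90-fold difference, and ran from +1.01 to +5.59. Over all 16820 tested probe sets the median was -0.05. The members fell off quickly with size: 89 had an averaged change under 1.5, 57 had 1.5 to 2, 25 had 2 to 3, 11 had 3 to 4 and 15 had over 4. Starting level and size of change were nearly unrelated across members (Pearson's r = -0.15, n = 197, a description over probe sets that share the same arrays). The 45 members starting at 100 to 200 had a median difference of 3.24-fold, the 49 starting at 1000 to 5000 of 2.84-fold, and the 5 starting above 5000 of 2.76-fold. Very large changes began at many levels, but none of the 5 brightest members exceeded +1.90. For 172 of the 197 members, all 6 arrays at 42 °C lay above all 6 at 32 °C across the cultivars. The limits already required this within each cultivar, so the count was largely fixed by the choice and nothing is read from it. The share over all probe sets was not counted.

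**Figure D1:**
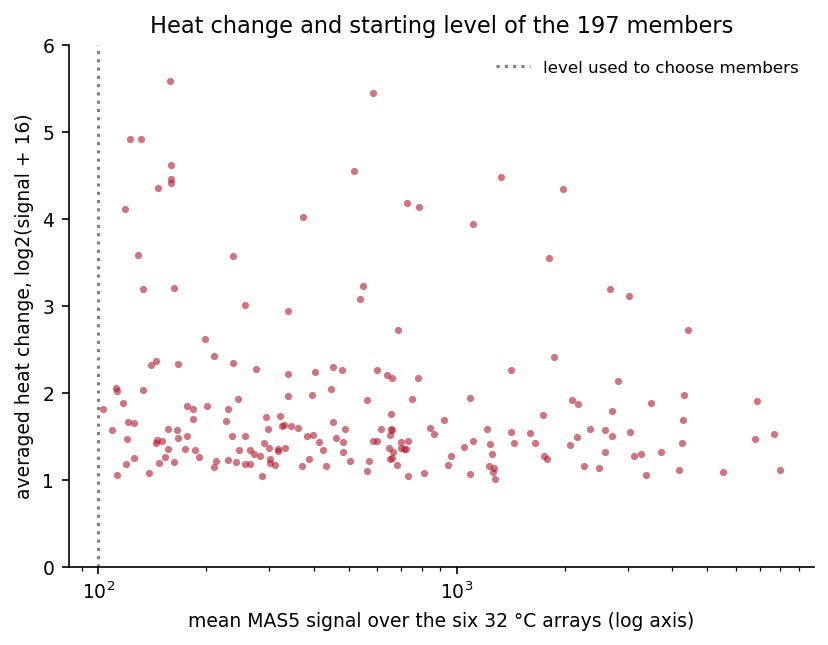
Averaged heat change of each of the 197 members (vertical axis, log2 scale) against its mean signal over the 6 arrays at 32 °C (horizontal log axis); the dotted line marks the level of 100 that the choice of members used. The points show no clear slope (r = -0.15), and no change above +1.90 starts from a signal over 5000.

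The largest heat change belonged to Ghi.8355.1.A1_at. Its signals at 32 °C were 107, 22.8 and 13.4 in Sicala 45 and 206, 533 and 70.7 in Sicot 53. At 42 °C they were 15094, 3621 and 2916 in Sicala 45 and 5055, 3568 and 6220 in Sicot 53. The temperatures stood far apart, at an averaged change of +5.59 ± 0.52 SE or 48.1-fold, and the 6 values at 32 °C themselves spread 39.7-fold, the widest among members. Its mean level at 32 °C passed 100 only through replicate 2 of Sicot 53, without which that mean was 84.0.

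Ghi.2233.1.S1_at was next. Its 32 °C signals were 1131, 74.4 and 47.4 in Sicala 45 and 655, 1441 and 158 in Sicot 53. Its 42 °C signals were 33638, 6143 and 8317 in Sicala 45 and 14938, 14638 and 20555 in Sicot 53. Its averaged change was +5.45 ± 0.72 SE, and every array at 42 °C lay well above the highest at 32 °C.

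GhiAffx.7545.1.S1_at gave 159, 61.5 and 85.5 in Sicala 45 and 114, 454 and 83.5 in Sicot 53 at 32 °C, and 20015, 1743 and 782 in Sicala 45 and 2324, 4406 and 6152 in Sicot 53 at 42 °C (averaged change +4.61). Ghi.6626.1.S1_at had 114, 105 and 110 in Sicala 45 and 110, 419 and 98.0 in Sicot 53 at 32 °C, and there replicate 2 of Sicot 53 stood above the other cool arrays, which lay close together. At 42 °C it reached 13561, 1444 and 1095 in Sicala 45 and 2455, 5197 and 4802 in Sicot 53 (averaged change +4.45). The other members among the 10 with the largest averaged change were GhiAffx.4130.1.S1_at (+4.92), GhiAffx.17865.1.S1_at (+4.91), Ghi.5679.1.S1_s_at (+4.55), Ghi.9308.1.S1_at (+4.48), Ghi.8686.2.A1_s_at (+4.41) and GhiAffx.23482.1.S1_at (+4.36).

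**Figure D2:**
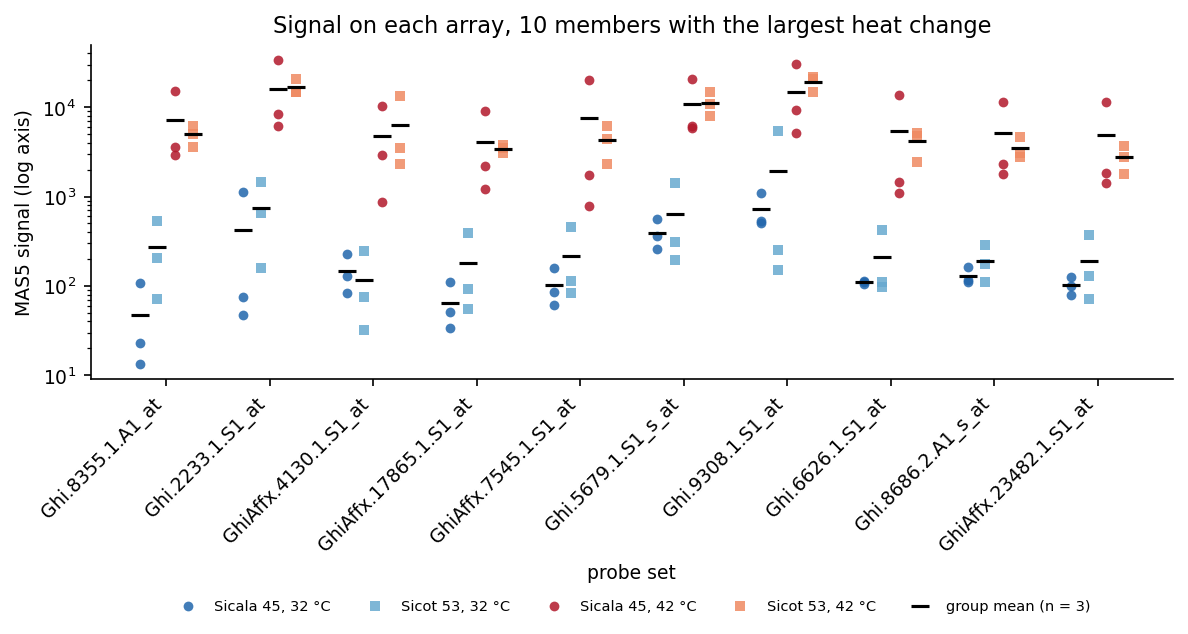
MAS5 signal (log axis) on each array for the 10 members with the largest averaged heat change; each point is an array, circles are Sicala 45 and squares Sicot 53, blue is 32 °C and red or orange 42 °C, and bars are group means (n = 3). For all 10, the highest of the 3 arrays of Sicot 53 at 32 °C is replicate 2, and the highest of Sicala 45 at 42 °C is replicate 1.

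Among the 6 members brightest at 32 °C, Gra.2691.2.A1_s_at had the highest mean signal and gave 4897, 9550 and 10565 in Sicala 45 and 8841, 8810 and 5221 in Sicot 53. At 42 °C it gave 15643, 18458 and 20673 in Sicala 45 and 10678, 20919 and 15722 in Sicot 53, and its averaged change was +1.12 ± 0.24 SE. In Ghi.599.1.A1_s_at (+1.47) and Ghi.6386.1.S1_x_at (+1.08) the arrays of Sicala 45 at 42 °C gave 19582, 15140 and 17720 and gave 13641, 10949 and 11356. Ghi.2031.1.S1_s_at (+1.52), Ghi.8378.2.S1_s_at (+1.90) and GhiAffx.11624.1.S1_s_at (+2.72) are the others of the 6. All of the 6 but Gra.2691.2.A1_s_at were highest of their groups on replicate 2 of Sicot 53 at 32 °C and on replicate 1 of Sicala 45 at 42 °C. GhiAffx.11624.1.S1_s_at gave 3297, 3945 and 3078 in Sicala 45 and 3408, 10854 and 1965 in Sicot 53 at 32 °C. At 42 °C it gave 50781, 18658 and 15131 in Sicala 45 and 23342, 23455 and 31702 in Sicot 53. The value of 50781 was 94.8% of the highest signal on its array.

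Among the 3 members with 1 gene symbol, LOC107946138 (Ghi.3494.2.S1_at) had the largest change. Its signals were 2468, 375 and 598 in Sicala 45 and 1055, 6724 and 682 in Sicot 53 at 32 °C, and 41248, 21295 and 14016 in Sicala 45 and 23962, 24653 and 29277 in Sicot 53 at 42 °C. The heat change was +4.78 ± 0.80 SE in Sicala 45 and +3.92 ± 0.80 in Sicot 53. A further probe set of this gene, Ghi.3494.2.A1_at, was dim at 32 °C (mean 24.1) and averaged 182 at 42 °C, with changes of +2.47 and +2.50. Both probe sets were highest in their 32 °C arrays on replicate 2 of Sicot 53.

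LOC107907037 (Ghi.5136.1.S1_s_at) gave 3766, 1321 and 1444 in Sicala 45 and 3049, 4966 and 1565 in Sicot 53 at 32 °C. At 42 °C it gave 30375, 20687 and 16365 in Sicala 45 and 20513, 21779 and 22519 in Sicot 53, changes of +3.48 and +2.90. LOC107950133 had a smaller change on its member probe set, Ghi.10297.1.S1_s_at, which gave +1.01 in Sicala 45 and +1.74 in Sicot 53 from a mean of 1051 at 32 °C. Of the other probe sets of that gene, Ghi.10346.1.S1_at had changes of +0.40 and +1.33, and Ghi.3049.3.A1_at had a mean signal of 12.2 at 42 °C, below the pseudocount, and so is too dim to show a change. Averaged over the cultivars, Ghi.10297.1.S1_s_at had +1.38 ± 0.17 SE and Ghi.10346.1.S1_at +0.86 ± 0.22 SE, and the difference between these probe sets was not tested.

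Members varied together between arrays of the same group. The deviations of the 3 arrays from their group mean sum to 0 and so do not enter the heat change. The limit on overlap did use single arrays, and the level limit used a mean of linear signals, which 1 bright array can raise. Without replicate 2 of Sicot 53 at 32 °C, 8 members fall below the level of 100, and these are counted in what follows. On replicate 2 of Sicot 53 at 32 °C, 171 of the 197 members lay above their group mean, with a median deviation of +0.36 on the log2 scale. Over all tested probe sets, 51.5% lay above, with a median of +0.01. On replicate 3 of that group 40 members lay above, and the median deviation was -0.24. On replicate 1 of Sicala 45 at 42 °C 152 members lay above, at a median of +0.39, where 43.3% of all tested probe sets did. Replicates 2 and 3 of that group had -0.18 and -0.25. These medians depend on the array they are set against: without replicate 3 of the group, the +0.36 in Sicot 53 became +0.24 and the +0.39 in Sicala 45 also became +0.24. In Sicala 45 at 32 °C the members' medians stayed between -0.04 and +0.03, and in Sicot 53 at 42 °C they were -0.15, +0.16 and +0.01.

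Members with larger heat changes deviated further on these arrays. Among the 66 members of largest heat change, all at least 3.52-fold higher at 42 °C, the median deviation was +0.80 on replicate 2 of Sicot 53 at 32 °C and +0.85 on replicate 1 of Sicala 45 at 42 °C. Among the 66 members of smallest change, at most 2.57-fold, it was +0.21 and +0.20. Across members, deviation and averaged heat change correlated at r = 0.69 on the first of these arrays and r = 0.61 on the second, with n = 197 probe sets that share each array. Across all 16820 tested probe sets r was 0.20 and -0.05. On replicate 3 of Sicot 53 at 32 °C and replicate 3 of Sicala 45 at 42 °C the members' r was -0.62 and -0.52. When replicate 2 of Sicot 53 at 32 °C was left out, 59 of the 66 members of largest change still met the limits.

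**Figure D3:**
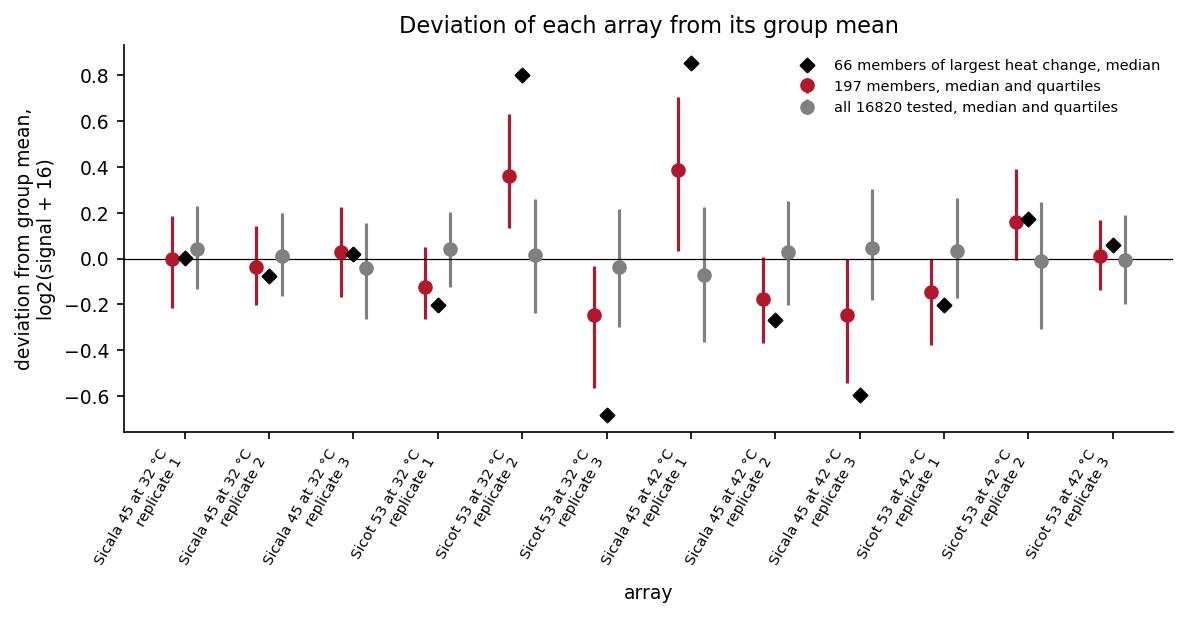
Deviation of each of the 12 arrays from the mean of its group, log2(signal + 16): red points are the median of the 197 members and grey points that of all 16820 tested probe sets, with bars from the lower to the upper quartile, and black diamonds are the median of the 66 members of largest heat change. The diamonds reach +0.80 on replicate 2 of Sicot 53 at 32 °C and +0.85 on replicate 1 of Sicala 45 at 42 °C, while every grey median lies between -0.07 and +0.04.

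The same 2 arrays held the highest signals of most members at their temperatures, and the lowest fell more often on other arrays. At 32 °C, 109 of 197 members (55.3%) had their highest of 6 signals on replicate 2 of Sicot 53, where 23.8% of all tested probe sets did. At 42 °C, 109 members had their highest signal on replicate 1 of Sicala 45, beside 18.5% of all tested. The lowest signal at 32 °C fell on replicate 3 of Sicot 53 for 73 members (37.1%), beside 20.9% of all tested. At 42 °C it fell on replicate 3 of Sicala 45 for 87 members (44.2%), beside 15.8% of all tested. Within the 32 °C arrays the highest signal was a median of 2.17 times the lowest over all members and 3.61 times over the 66 of largest heat change.

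Technical measures of these arrays were as follows. Replicate 2 of Sicot 53 at 32 °C had the highest spike signal of its temperature (756) and a ubq11 ratio of 5.16. Scaled to the spikes, its median member deviation was +0.07, and that of the 66 members of largest change +0.51. Replicate 1 of Sicala 45 at 42 °C had a spike signal of 723, beside 673 and 720 on the other arrays of its group, and the lowest ubq11 ratio at 42 °C (6.39), and its median member deviation after spike scaling was +0.35. Replicate 3 of Sicala 45 at 42 °C, low for most members, is the array whose values are stored with more decimals than those of the others. The part of these measures in the shared variation was not tested.

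The cultivars gave similar heat changes for most members. The median was +1.57 in Sicala 45 and +1.51 in Sicot 53, and the changes correlated across members at r = 0.91 (Spearman's rho = 0.76, n = 197, a description of probe sets chosen to exceed 1 in both). The change was larger in Sicala 45 for 112 members and in Sicot 53 for 85. For 158 members the cultivars' changes differed by under 0.5 log2 units and for 8 by 1 or more. Taken as Sicot 53 minus Sicala 45, the difference had a median of -0.04 and quartiles of -0.23 and +0.17 over members. Over all tested probe sets the median was also -0.04, with quartiles of -0.31 and +0.23. Neither the closeness nor the tilt to Sicala 45 is therefore particular to the members. The standard error of that difference had a median of 0.45 over members. These differences were not tested, since the limits used both changes.

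The widest gaps in favour of Sicala 45 were those of Ghi.8355.1.A1_at, given above (+6.71 against +4.46), and Ghi.5602.1.A1_s_at. Signals of Ghi.5602.1.A1_s_at were 185, 190 and 141 in Sicala 45 and 200, 150 and 109 in Sicot 53 at 32 °C, and 4044, 1779 and 3155 against 724, 1007 and 1027 at 42 °C. The cultivars overlapped at 32 °C and stood apart at 42 °C, with heat changes of +3.93 and +2.49. This member did not share the peak on replicate 2 of Sicot 53 at 32 °C. In favour of Sicot 53 the widest gaps were those of GhiAffx.4130.1.S1_at (+4.31 against +5.52) and Ghi.9283.2.A1_s_at (+1.64 against +2.80). The last gave 241, 263 and 582 in Sicala 45 and 327, 346 and 271 in Sicot 53 at 32 °C, and 1578, 1296 and 602 against 1720, 3835 and 1771 at 42 °C. As Sicot 53 minus Sicala 45, the gaps were -2.25 ± 1.05 SE for Ghi.8355.1.A1_at and -1.44 ± 0.43 SE for Ghi.5602.1.A1_s_at. They were +1.22 ± 1.24 SE for GhiAffx.4130.1.S1_at and +1.16 ± 0.60 SE for Ghi.9283.2.A1_s_at.

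**Figure D4:**
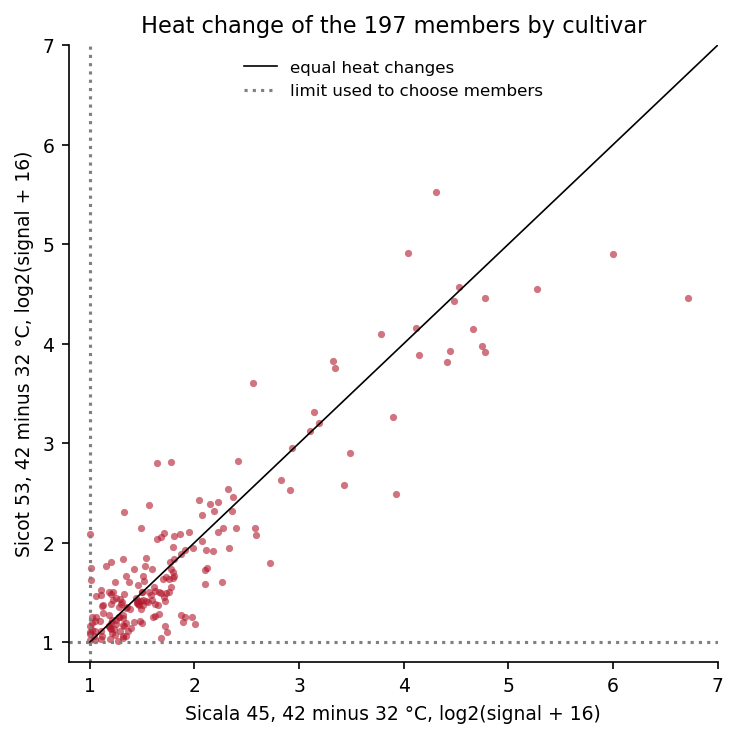
Heat change of each of the 197 members in Sicala 45 (horizontal) and Sicot 53 (vertical), log2(signal + 16) at 42 °C minus 32 °C; the line marks equal changes and the dotted lines the limit of 1 that chose the members. Points follow the line (r = 0.91), with the point farthest below it, Ghi.8355.1.A1_at, at +6.71 and +4.46.

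The cultivar difference averaged over both temperatures is not itself a limit and was tested. It is not wholly apart from the choice: the level limit used a linear mean over both cultivars. A dim member can therefore meet it through its brighter cultivar. No member passed (0 of 197, limma, Benjamini-Hochberg adjusted p under 0.05), while 32 of the 16820 tested probe sets did (0.19%). At an unadjusted p under 0.05 there were 4 members (2.03%), beside 474 of all tested (2.82%). The median difference of members, Sicot 53 minus Sicala 45, was +0.03, against -0.02 over all tested. The half-widths of the members' 95% intervals had a median of 0.49. For 152 members it lay inside a 2-fold difference in either direction, and for the other members a 2-fold difference was not excluded.

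Ghi.5602.1.A1_s_at came nearest, 1.87-fold lower in Sicot 53 (log2 difference -0.90 ± 0.22 SE, limma adjusted p = 0.291). The difference was -0.18 at 32 °C and -1.62 at 42 °C. It passed under 1 of 25 alternatives, spike scaling (log2 difference -1.18, limma adjusted p = 0.0477), with adjusted p between 0.0477 and 0.844 over all of them. Ghi.1902.1.S1_at was lower in Sicot 53 on all arrays at 32 °C, at 90.2, 96.5 and 100 against 157, 168 and 141 in Sicala 45. At 42 °C its cultivars overlapped, at 276, 492 and 352 against 470, 387 and 599, and the averaged difference was -0.50 ± 0.17 SE (limma, unadjusted p = 0.0129). Ghi.6492.1.S1_s_at had -0.60 ± 0.25 SE, with -0.19 at 32 °C and -1.02 at 42 °C. GhiAffx.12181.1.A1_at, one of the dimmest members, had +0.65 ± 0.29 SE, with similar differences at 32 °C (+0.70) and 42 °C (+0.59). Its mean at 32 °C was 79.0 in Sicala 45 and 140 in Sicot 53, so it met the level limit through Sicot 53. Ghi.1902.1.S1_at, with means of 155 in Sicala 45 and 95.6 in Sicot 53, met it through Sicala 45.

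**Figure D5:**
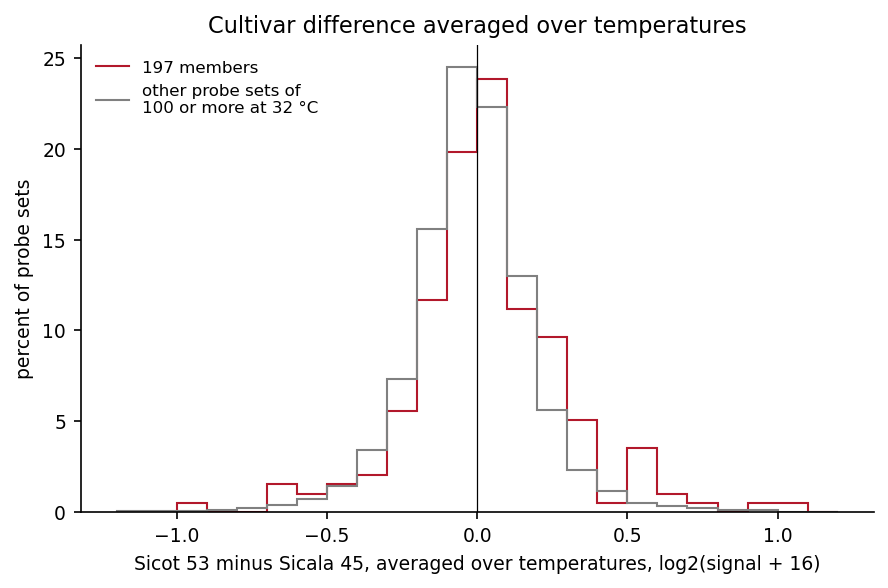
Share of probe sets by their cultivar difference averaged over temperatures (Sicot 53 minus Sicala 45, log2 scale, bins of 0.1) for the 197 members in red and for the 12007 other tested probe sets with a mean of 100 or more at 32 °C in grey. Both distributions centre near 0, with medians of +0.03 and -0.02, and 0.425% of the grey probe sets lie outside the plotted range.

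Some members share a transcript cluster, the number after the prefix of the ID, and so may report the same or related transcripts. The 197 members fell into 193 clusters, and 4 clusters held 2 members each. In cluster Ghi.4209 the brighter probe set, Ghi.4209.1.S1_s_at, had an averaged change of +1.28 and the dimmer, Ghi.4209.1.A1_x_at, +1.25. In Ghi.8299 both had +1.01 in Sicala 45, with +1.63 and +2.09 in Sicot 53. In GhiAffx.25551 the averaged changes were +1.44 and +1.58, and in GhiAffx.2369 they were +2.32 and +1.18.

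In 46 clusters of members there were 73 further probe sets that missed a limit, and 56 of them were below 100 at 32 °C. Of the 73, 60 (82.2%) had a higher mean at 42 °C, beside 47.8% of all non-control probe sets, with a median change of +0.48. In 10 of them (13.7%) the 42 °C arrays lay above the 32 °C arrays in both cultivars, and over all 24029 probe sets 3.02% did. All 10 were below 100 at 32 °C. Of the 17 at 100 or more, 0 stood apart upward in both cultivars, and their median change was +0.19. Cluster mates at that level that stood apart with changes of 1 or more in both were already members. This 0 was therefore largely fixed by the choice, and nothing is read from it. Over all probe sets at that level, the members included, 5.01% stood apart upward. As examples, Ghi.8378.1.S1_at, with a mean of 197 at 32 °C, overlapped between temperatures, with replicate 2 of Sicot 53 at 542 at 32 °C and replicate 1 at 419 at 42 °C. Ghi.904.1.A1_s_at was too dim at 32 °C (34.5) for the level limit, with heat changes by cultivar (Sicala 45 first) of +1.78 and +2.82. The member of its cluster, Ghi.904.1.S1_s_at, had +2.19 and +2.32.

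Near the limits the choice turned on small differences. GhiAffx.3538.1.S1_at entered with a smaller change of 1.001 and Ghi.6386.1.S1_x_at with 1.004, while Gra.2524.1.S1_s_at (0.999) and GhiAffx.23615.1.A1_at (0.998) stayed out. By level, Ghi.266.1.S1_x_at (103) and GhiAffx.12181.1.A1_at (109) were inside, and Ghi.10450.1.S1_s_at (91.3) and Gra.2525.1.A1_at (89.7) outside. Ghi.8772.1.A1_at and Ghi.9283.2.A1_s_at had gaps of 0.02 and 0.05 log2 units between the temperatures, and Ghi.9740.2.A1_at and GhiAffx.49721.1.A1_at overlapped by 0.01 and 0.02. Only the overlap kept 61 further probe sets out, and only the level kept out 39.

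Those 39 dimmer probe sets had a median averaged change of +1.59, and the 126 that met the mirrored limits downward had -1.40. In probe set design the members resembled other bright probe sets. IDs ending in _s_at, _x_at or _a_at, which can match several related transcripts, made up 75, 18 and 4 of the members, or 38.1%, 9.14% and 2.03%. Among the 12007 other bright probe sets the shares were 44.2%, 7.63% and 1.58%. Cotton is tetraploid, so signals of gene copies may not be separate.

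Of the probe sets left out by ID, 3 met every limit. NAC4 (LOC107916546, Ghi.7907.2.A1_at) had heat changes of +3.39 and +3.27, NAC2 (LOC107962533, Ghi.3264.1.S1_s_at) +1.38 and +1.11, and RAV1 (LOC107946446, GhiAffx.30941.1.S1_s_at) +2.99 and +1.89. These are DNA-binding transcription factors.

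Lists of named genes could not be read for the members, since none of them has a gene name and the NAC and RAV1 probe sets were left out. Whether members are chaperones or other known heat genes is therefore unknown here. As context, 17 lists were drawn up for heat, stress hormones, leaf functions and other cell types. The lists hold 90 tested probe sets, of which, for heat averaged over the cultivars, 11 rose and 4 fell at a limma adjusted p under 0.05, beside 4.22% and 4.59% of all tested probe sets. The rises were 4 of 8 NAC probe sets, all of NAC4 or NAC2, and 4 of 9 of the AP2, ERF, DREB and RAV list. There was 1 each for MADS factors (of 1), ethylene (of 6) and the cell wall (of 26). In the AP2, ERF, DREB and RAV list the rises were of RAV1 but for 1 of CBF17 (GhiAffx.33925.1.S1_at). A brighter CBF17 probe set, Ghi.4480.1.S1_s_at, had +0.18. The NAC and RAV1 rises are of genes left out of the members by ID, and probe sets of the same gene are counted apart. The falls were 2 of 10 antioxidant enzymes and 2 of 7 lipid and sterol probe sets. The lists for MYB (6), WRKY (3), abscisic acid and late embryogenesis genes (2), aquaporins (1), sugar metabolism (3), flavonoids (4), leaf mesophyll markers (1), cotton fibre markers (4) and chaperones (1) had 0 calls, and that for heat shock factors matched no tested probe set. The single chaperone probe set, named CLP, had a change of +0.24, the 4 fibre markers a median of -0.19 and the single mesophyll marker +0.12. Without replicate 1 of Sicot 53 at 32 °C the counts over all lists were 7 and 0, and with spike scaling 7 and 21.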

How the data were processed

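Leaf RNA on 12 Affymetrix Cotton arrays gave 1 intensity per probe set and array. Per the submitters' processing notes, the deposited intensity values are MAS5 signals, with no version given. The table holds 24132 probe sets, of which 103 AFFX controls were left out. No 2 arrays held identical values. The members and gene lists were chosen with earlier results of these data known. The limits were applied to log2(signal + 16), a pseudocount that makes fold changes understate those of dim probe sets. R 4.3.3 with limma 3.58.1 (lmFit, eBayes with trend, two-sided) then served to model the 4 groups over 12 arrays in the 16820 probe sets outside the dimmest 30%, which hold all 197 members. P-values were adjusted over them by the Benjamini-Hochberg method. The fit was tested on simulated data, with values drawn independently for each probe set and array. Deviations shared between probe sets, as seen among the members, were not simulated. Errors are standard errors of that model or SDs over arrays. With 3 arrays a group, their number limits the precision.

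Named were members with 1 gene symbol, the 10 of largest averaged heat change, the 6 brightest at 32 °C, the 4 of lowest p for cultivar, the 2 widest cultivar gaps each way, those nearest a limit and those sharing a cluster. List genes outside the members are given mostly as counts. Gene IDs were matched to a table of assembly Gossypium_hirsutum_v2.1, with names from its synonyms: 697 probe sets have 1 symbol, all matched, and 324 of these a name. No coordinates are given. Alternatives were quantile, median and spike scaling, pseudocounts of 1 and 64, no filter or 50%, no trend, array weights, a replicate block, the 3'/5' ratio as a covariate and leaving out each array. Added after seeing the data were leaving out both arrays with a ubq11 ratio above 20 and both arrays with the highest members. Plots used matplotlib 3.10.9 and Python 3.11.15.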

Additional observations from a re-analysis of the deposited data

How the results depend on the processing

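The number of probe sets meeting the limits was 197 and lay between 173 and 229 under every alternative but spike scaling, which gave 80. Spike scaling also lowered the median averaged heat change of members from +1.54 to +1.05 and let 1 member pass for cultivar. In 72 cases a member met the limits in all 19 settings tried for them; counting every setting but spike scaling, 121 did. Leaving out single arrays gave 183 to 228 probe sets. Without replicate 2 of Sicot 53 at 32 °C, 10 members were lost, 8 of them because their level at 32 °C fell below 100, among them Ghi.8355.1.A1_at and GhiAffx.17865.1.S1_at. No member passed for cultivar under the other 24 settings, and with the replicate number as a block 0 passed as well. Same-numbered arrays did not deviate together in every pair, so the numbers were not taken to pair samples. For the other named members the cultivar difference was not recomputed. The members' median deviation on replicate 2 of Sicot 53 at 32 °C lay between +0.07 (spike scaling) and +0.39, and that on replicate 1 of Sicala 45 at 42 °C between +0.24 (without replicate 3 of its group) and +0.55. Array weights raised the count of all probe sets called for cultivar from 32 to 61.

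Calls on the lists moved more. The number lower at 42 °C was 4, and became 2 with median centring, 2 without the trend, 8 with array weights and 21 with spike scaling. The number higher was 11, and 7 with spike scaling. Leaving out both arrays with high ubq11 ratios gave 6 and 1. Leaving out single arrays gave 7 to 12 higher and 0 to 4 lower. The cause was not tested.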
